A study of Mus musculus with 8 samples.

Results

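The genes described here are lactoperoxidase (Lpo), the glutathione peroxidases Gpx1 to Gpx7 and catalase (Cat), enzymes that consume peroxides, in round spermatids of mice with the BrdtΔBD1 allele. They were taken as every probe set that the platform annotation gives to exactly 1 gene, that gene being one of these 9, which yields 11 probe sets among 34945 single-gene probe sets for 18193 genes. The group was chosen with the mutant and control values of these same arrays known, so it was selected on that comparison, and the differences below describe the members and do not test them. Round spermatids are haploid germ cells between meiosis and elongation. The 4 mutant arrays hold RNA from BrdtΔBD1 mutants, whose zygosity the labels do not give, and the 4 control arrays hold RNA from animals labelled only as control. BrdtΔBD1 is an allele of the testis-specific chromatin reader Brdt whose product has lost bromodomain BD1, a module that binds acetylated histones. Both groups are 129 Sv/Ev adults of 2 to 4 months, and each array pools purified cells from 7 animals, so the spread between arrays is that between pools. Values are deposited log2 intensities, on which a difference of 1 is a factor of 2 and array medians lie between 3.10 and 3.14.

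Glutathione peroxidases reduce hydrogen peroxide and lipid hydroperoxides with glutathione as the electron donor. Gpx1 to Gpx4 of the mouse carry selenocysteine in the active site, while Gpx5, Gpx6 and Gpx7 carry cysteine there. In the testis Gpx4 is the best known member: it reduces lipid hydroperoxides, is abundant in spermatids and ends up cross-linked in the sheath around sperm mitochondria. Lpo is a secreted heme peroxidase, studied mostly in milk and saliva, that uses hydrogen peroxide to oxidise thiocyanate. Cat is the heme enzyme of peroxisomes that splits hydrogen peroxide into water and oxygen.

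Among the members, Lpo had the most negative mutant minus control difference and Gpx1 the most positive. Gpx6 was brightly read, and its groups overlapped at a difference of -0.29 (SE 0.16). The promoter windows of Lpo, Gpx1 and Gpx6 are shown for that reason. Each runs from 250 bases before to 50 bases after the RefSeq gene start in GRCm38.p6 and is written 5′ to 3′ on the strand of the gene. Capitals mark matches, on either strand, to any of 6 motifs.
Lpo, chr11:87826065-87826364, minus strand: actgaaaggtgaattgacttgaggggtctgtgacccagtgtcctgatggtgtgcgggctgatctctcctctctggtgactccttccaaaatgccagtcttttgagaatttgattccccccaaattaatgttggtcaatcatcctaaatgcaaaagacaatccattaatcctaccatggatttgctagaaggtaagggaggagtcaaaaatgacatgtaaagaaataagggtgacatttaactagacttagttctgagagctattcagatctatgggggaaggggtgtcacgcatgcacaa
Gpx1, chr9:108338830-108339129, plus strand: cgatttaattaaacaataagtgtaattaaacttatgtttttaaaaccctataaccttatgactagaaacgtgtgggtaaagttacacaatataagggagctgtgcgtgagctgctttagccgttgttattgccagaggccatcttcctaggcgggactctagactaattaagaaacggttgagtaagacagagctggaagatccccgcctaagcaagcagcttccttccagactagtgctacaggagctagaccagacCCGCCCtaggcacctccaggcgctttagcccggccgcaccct
Gpx6, chr13:21311953-21312252, plus strand: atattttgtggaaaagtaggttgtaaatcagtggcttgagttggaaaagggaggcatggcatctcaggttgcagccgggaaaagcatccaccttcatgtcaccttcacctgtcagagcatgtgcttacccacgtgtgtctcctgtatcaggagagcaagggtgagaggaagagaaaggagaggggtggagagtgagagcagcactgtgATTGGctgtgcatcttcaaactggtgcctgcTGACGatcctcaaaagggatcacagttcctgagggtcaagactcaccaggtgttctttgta
The motifs searched were the cAMP response element palindrome TGACGTCA, its short form TGACG (which lies within the palindrome), the antioxidant response element core TGACNNNGC, the GC box GGGCGG, the TATA box TATAAA and the CCAAT box CCAAT. Of 32851 promoter windows of that length, 1.79% held the palindrome, 20.8% the short form, 12.4% the antioxidant core, 35.7% the GC box, 13.6% the TATA box and 37.4% the CCAAT box. The Lpo window held none of these letter strings, has a GC content of 43.3% and contains 2 CpG dinucleotides. The Gpx1 window held 1 GC box, read on the opposite strand, at a GC content of 47.0% with 11 CpG. The Gpx6 window held the short form, starting 11 bases before the gene start, and 1 CCAAT box read on the opposite strand, with 3 CpG. The median GC content over all windows is 52.7%. All 9 members had a window in the RefSeq table, 12 in all since Gpx4 has several starts, and 0 of the 12 held the palindrome, the antioxidant core or the TATA box.

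Arrays correlated with r between 0.970 and 0.993. The 3′ Gapdh control probe set exceeded the 5′ one, a sign of RNA degradation where the gap is wide, by 0.33 to 0.94 (log2) on mutant arrays, against 0.46 to 0.48 on control arrays 2 and 4 and 1.68 and 2.05 on control arrays 1 and 3. Round spermatid markers such as Acrv1, Tnp1 and Prm1 were bright on every array, with a list mean over 18 genes of 12.8 to 13.2 on mutant and 12.8 to 13.1 on control arrays, and 0 of the 18 passed the limma threshold of an adjusted p under 0.05 (before adjustment, 1 was higher and 2 were lower in mutant arrays). With the replicate number as a block, 1 of the 18 rose, Tex101, and 1 fell, the sperm calcium channel gene Catsper1. The brightest Brdt probe set, 1435502_a_at, read 10.3 to 11.1 on mutant and 11.7 to 12.2 on control arrays, but its position in the transcript is not given here, so it is no check of the labels. Of 24 markers of Sertoli cells, the somatic cells that nurse germ cells, 6 rose in mutant arrays and 0 fell, or 14 and 0 with the replicate block, and before adjustment 16 were higher and 0 lower. The list mean ran from 5.67 to 7.07 on mutant arrays, against 4.80 to 5.55 on control arrays. The mutant minus control difference was 3.01 for Defb19, 1.72 for the tight junction gene Cldn11, 1.54 for the inhibin subunit Inha, 1.46 for Rhox5 and 1.15 for the transcription factor Wt1, of which Defb19 and Cldn11 passed without the block. Amh averaged 1.95 in mutant arrays and 1.97 in controls, near the lowest values of the table, and Sox9 averaged 3.80 in both. In pooled cells, fewer cells of a type and less RNA per cell cannot be told apart.

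Lpo read lower on mutant than on control arrays. Its probe set 1448998_at read 6.42, 6.33, 6.77 and 6.56 on mutant arrays 1 to 4, against 8.84, 8.19, 8.71 and 8.69 on control arrays 1 to 4. The groups did not overlap, and the highest mutant array lay 1.42 below the lowest control array, a gap wider than the whole range within mutant (0.44) or control arrays (0.65). The means were 6.52 ± 0.19 in mutant and 8.61 ± 0.29 in control arrays (SD, n = 4 each), a difference of -2.09 (SE 0.16), or 4.26-fold lower in mutant arrays. Same-numbered arrays differed by -2.42, -1.87, -1.95 and -2.13. The lowest value of each group was that of array 2. Without control arrays 1 and 3 the difference was -1.92.

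In the limma fit over all 45037 probe sets, Lpo was the 1 member called at an adjusted p under 0.05, that is 1 of 11 probe sets beside 1.42% of all probe sets. At gene level, with each gene represented by its brightest probe set, Lpo was again the 1 call among 9 members, beside 3.71% of all genes. Since the members were chosen with this contrast known, nothing is read from these shares. Lpo passed in each of 14 alternative fits over probe sets, with a difference between -2.23 and -1.92. Values of mutant arrays lay wholly above or below those of controls for 3 of 11 member probe sets, those of Lpo, Gpx1 and one of Cat, beside 9.48% of all probe sets.

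**Figure D1:**
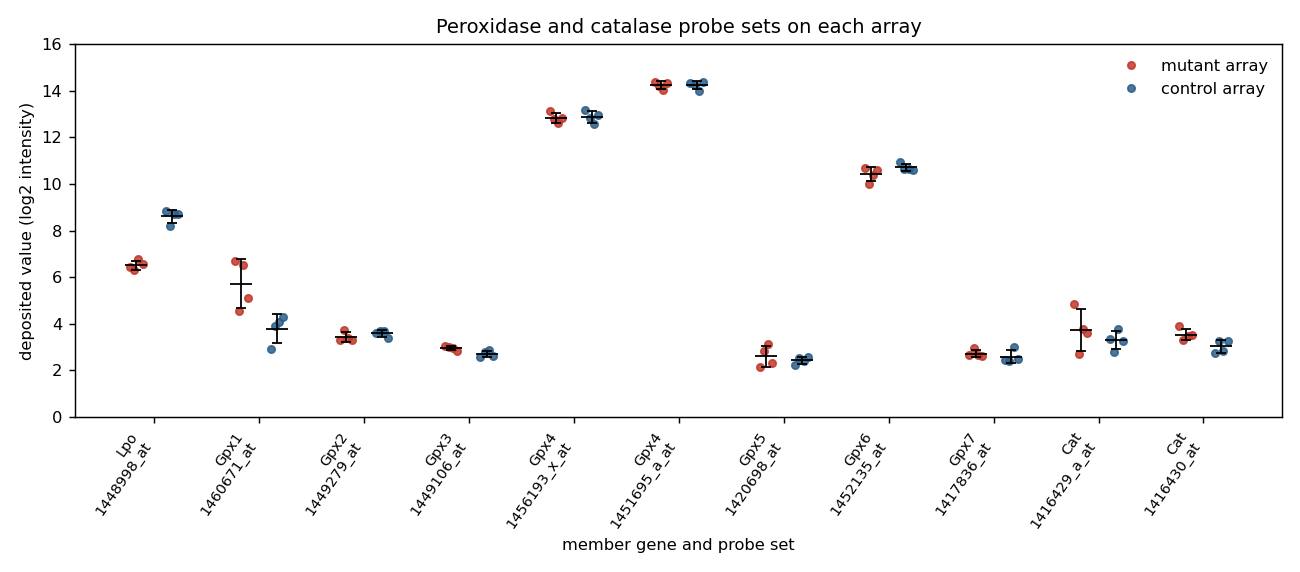
Deposited log2 intensity (vertical axis) of the 11 member probe sets on the 4 mutant (red, left) and 4 control arrays (blue, right). Points are arrays, and bars give the mean ± SD. Lpo lies near 6.52 in mutant and 8.61 in control arrays, both Gpx4 probe sets are bright in both groups, and most other members read under 4.

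Among 7815 other genes with a mean of at least 5 in one group, the 5 whose profile over the 8 arrays lay nearest to that of Lpo were Me3, Ncs1, Lgi2, Crtap and Cyb5r2. Likeness was the root mean square distance between log2 profiles, each centred on its own mean, and ran from 0.19 for Me3 to 0.22 for Cyb5r2. Me3, a mitochondrial malic enzyme, averaged 4.18 in mutant and 6.24 in control arrays. Ncs1, a neuronal calcium sensor, averaged 3.32 in mutant and 5.58 in control arrays. Crtap, a cartilage-associated protein of collagen modification, averaged 7.12 in mutant and 9.32 in control arrays. The differences were -2.06 for Me3, -2.25 for Ncs1, -1.83 for Lgi2, -2.20 for Crtap and -1.80 for Cyb5r2, beside -2.09 for Lpo. These genes were picked for sharing the Lpo pattern on these arrays, and no test applies to them.

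Gpx1, the cytosolic and mitochondrial enzyme that reduces hydrogen peroxide, had a higher mean in mutant arrays but a wide spread. Its probe set 1460671_at read 6.69, 4.56, 6.52 and 5.09 on mutant arrays 1 to 4, against 2.90, 3.89, 4.08 and 4.30 on control arrays 1 to 4. All mutant arrays lay above all control arrays, by 0.26 at the closest, while mutant arrays alone spanned 2.13. The means were 5.72 ± 1.05 in mutant and 3.79 ± 0.62 in control arrays (SD, n = 4 each), a difference of 1.92 (SE 0.51), or 3.80-fold. Gpx1 did not pass the threshold over all probe sets or over all genes. Leaving out mutant array 2, the lowest mutant array, brought it past the threshold with a difference of 2.31, and leaving out both control arrays with the RNA quality difference gave 1.62 without a call. At gene level it passed in 4 of 15 alternatives. Same-numbered arrays differed by 3.79, 0.67, 2.44 and 0.79, so all 4 pairs were higher in the mutant array.

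The Sertoli marker mean was 6.83, 5.67, 7.07 and 6.69 on mutant arrays 1 to 4, against 4.80, 4.95, 5.55 and 5.46 on control arrays 1 to 4. For this mean and for Gpx1, mutant array 2 was the lowest mutant array and control array 1 the lowest control array. Mutant array 2 was also the lowest mutant array for Lpo and Gpx6. The highest arrays were not the same: mutant array 1 and control array 4 for Gpx1, mutant array 3 and control array 3 for the Sertoli mean. Mutant arrays 1 and 4 were close in the Sertoli mean but read 6.69 and 5.09 for Gpx1. Leydig cell markers had list means of 4.62 to 4.90 on mutant and 3.78 to 4.19 on control arrays. The 2 of 9 that rose were Gsta2 (difference 2.65) and Aldh1a1 (2.50). The steroidogenic genes Cyp17a1 (1.05, with 5.11 on mutant array 2), Star (0.35), Hsd3b1 (0.18), Hsd17b3 (0.21) and Cyp11a1 (-0.33) did not pass. The Leydig list differed by 0.75 as a mean but by 0.42 as a median of the markers. Spermatogonia markers had list means of 5.43, 4.63, 5.03 and 4.78 on mutant arrays 1 to 4. On control arrays 1 to 4 they were 4.30, 3.95, 4.52 and 4.20. Of 11 spermatogonia markers 1 rose, or 4 with the block. Mutant arrays ranked in the same order for this mean as for Gpx1, while control arrays did not. Peritubular and vascular markers had list means of 3.23 to 3.77 on mutant and 3.07 to 3.15 on control arrays. Mutant array 1 was the highest mutant array for the Leydig, the spermatogonia and this list mean. The part of RNA from Sertoli, Leydig, spermatogonial, peritubular or vascular cells in the Gpx1 difference was not tested. Blood and macrophage markers, from cells that also carry Gpx1 and Cat, had list means of 3.06 to 3.62 on mutant and 2.99 to 3.15 on control arrays. Of these 9 genes 0 passed in limma (1 before adjustment), and they did not move one way. The hemoglobin gene Hba-a1 read 2.90 to 3.06 on mutant and 3.05 to 3.25 on control arrays, while Alas2, of heme synthesis in red cell precursors, averaged 3.93 in mutant and 2.97 in control arrays. Lyz2, a macrophage lysozyme, averaged 4.21 in mutant and 3.30 in control arrays, with 6.08 on mutant array 1.

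**Figure D2:**
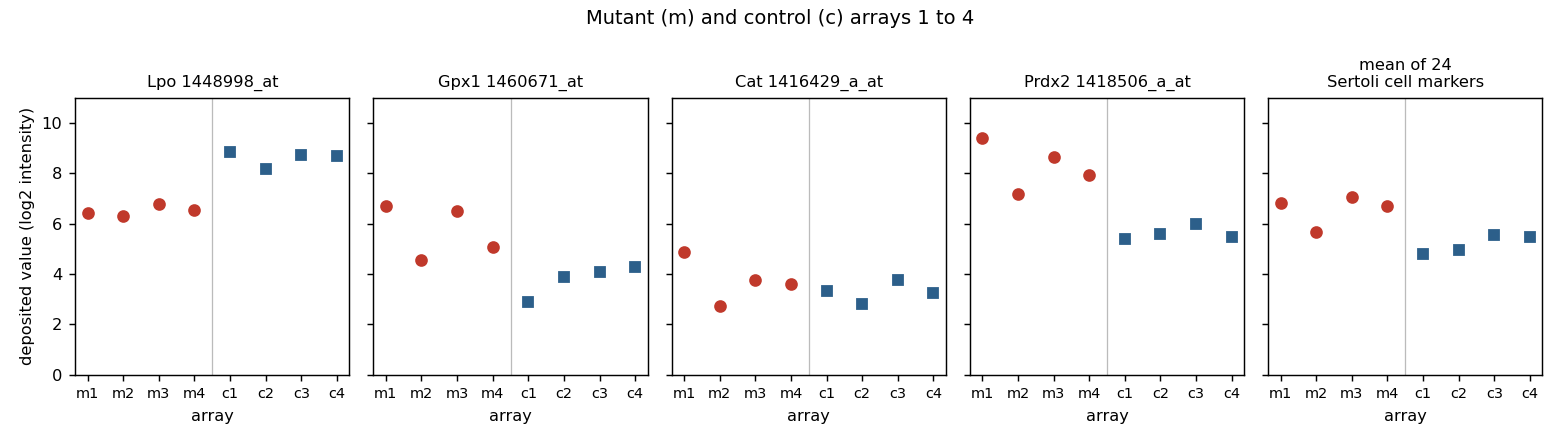
Deposited log2 intensity (vertical axis) on mutant arrays m1 to m4 (red circles) and control arrays c1 to c4 (blue squares) for Lpo, Gpx1, a Cat probe set, Prdx2 and the mean of 24 Sertoli cell markers. Mutant array 2 is lowest among mutant arrays in every panel, while Lpo keeps a mutant range of 0.44 against 2.13 for Gpx1.

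Gpx4, the lipid hydroperoxidase of spermatids, was bright in both groups and nearly equal between them. Probe set 1451695_a_at read 14.37, 14.21, 14.02 and 14.33 on mutant arrays 1 to 4, against 14.32, 14.24, 13.99 and 14.37 on control arrays 1 to 4. Its means were 14.23 ± 0.16 in mutant and 14.23 ± 0.17 in control arrays (SD, n = 4 each), a difference of 0.01 (SE 0.12). Probe set 1456193_x_at, whose type can also bind related transcripts, read 13.11, 12.77, 12.60 and 12.82 on mutant arrays, against 13.15, 12.84, 12.57 and 12.93 on control arrays, a difference of -0.05 (SE 0.15). In both probe sets the number 3 array was the lowest of its group. Mutant arrays followed the control arrays of the same number: same-numbered arrays differed by at most 0.05 in the first probe set and by at most 0.11 in the second, whereas the number means spanned 0.35 and 0.55. The sign of either difference is not settled, since it turned in 5 of 14 alternatives for the first and in 2 of 14 for the second.

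Gpx6, a family member first described in olfactory tissue, was the other glutathione peroxidase read well above the array median in both groups. It read 10.69, 9.99, 10.40 and 10.58 on mutant arrays 1 to 4, against 10.94, 10.66, 10.63 and 10.58 on control arrays 1 to 4. The groups overlapped, with a difference of -0.29 (SE 0.16) that kept its sign in 14 of 14 alternatives and did not pass in any. The lowest value was again that of mutant array 2.

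**Figure D3:**
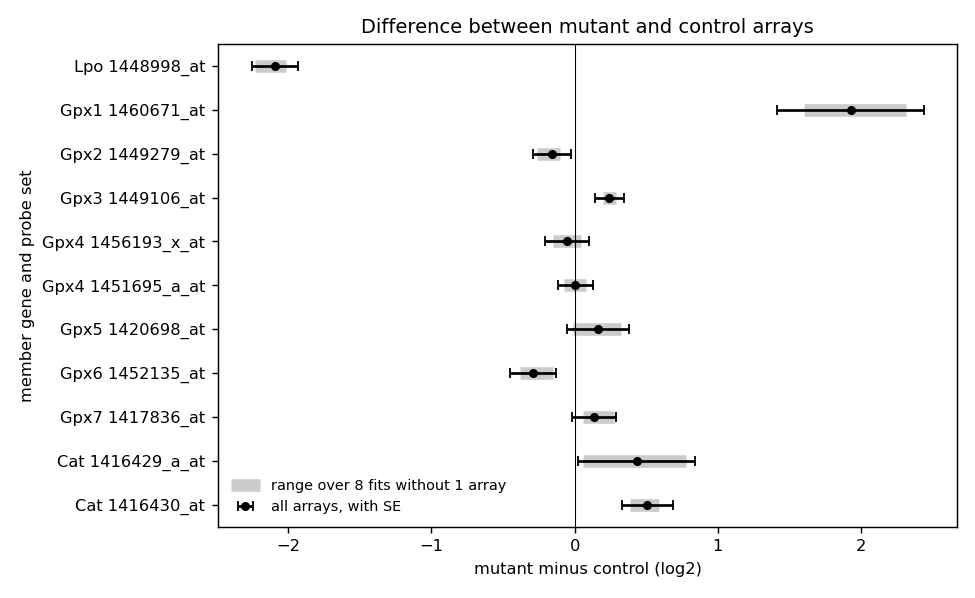
Mutant minus control difference (log2, horizontal axis) of each member probe set, with its SE as whiskers. Grey bands span the 8 fits that leave out 1 array, from -2.23 to -2.01 for Lpo and from 1.60 to 2.31 for Gpx1.

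Cat was read by 2 probe sets that differed in spread. Probe set 1416429_a_at read 4.86, 2.71, 3.76 and 3.59 on mutant arrays 1 to 4, against 3.34, 2.81, 3.77 and 3.26 on control arrays 1 to 4, so mutant arrays held both the highest and the lowest value. Its difference of 0.43 (SE 0.41) was 0.06 without mutant array 1 and 0.77 without mutant array 2. Mutant array 1 also had the highest peritubular and vascular marker mean, 3.77 against 3.23 to 3.29 on the other mutant arrays. Its blood and macrophage marker mean was 3.62, against 3.06 to 3.23 on the other mutant arrays. The part of RNA from such cells in the Cat values was not tested. Probe set 1416430_at read 3.89, 3.30, 3.47 and 3.50 on mutant arrays, against 2.75, 3.28, 2.82 and 3.28 on control arrays, a difference of 0.51 (SE 0.18). Those groups did not overlap, by a margin of 0.01, and without control arrays 1 and 3, the lowest controls, the difference was 0.26. Neither probe set passed the threshold.

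The other members read low in both groups. The means of Gpx2 lay above the array medians, and those of Gpx3, Gpx5 and Gpx7 below them. The control mean of Gpx5 was also below the 25th percentile of every array (2.56 to 2.65). Across Gpx2, Gpx3, Gpx5, Gpx7 and Cat probe set 1416430_at, the 5 member probe sets under 4 on every array, values ran from 2.13 to 3.89 and differences from -0.16 to 0.51. Gpx2, the epithelial enzyme of the gut, averaged 3.43 ± 0.21 in mutant and 3.59 ± 0.15 in control arrays (SD, n = 4 each). Gpx3, the secreted plasma enzyme, averaged 2.96 ± 0.10 in mutant and 2.72 ± 0.13 in control arrays, a difference of 0.24 (SE 0.10) that was positive within all 4 same-numbered pairs. Gpx5, secreted by the epididymis, averaged 2.60 ± 0.46 in mutant and 2.44 ± 0.16 in control arrays, and mutant array 1 at 2.13 and mutant array 3 at 3.13 enclosed all control values. The 9 epididymis markers measured were under 4 on every array. Gpx7, of the endoplasmic reticulum, averaged 2.72 ± 0.16 in mutant and 2.59 ± 0.28 in control arrays. Over the 11 member probe sets, 7 differences were positive and 4 negative, with a median of 0.13 beside -0.03 over all probe sets.

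Other genes of peroxide metabolism were looked at in 7 lists with 113 measured genes, none a member. In limma, 1 gene rose and 0 fell (before adjustment, 19 and 6 genes had p under 0.05 in those directions), beside 1.86% of all genes that rose and 1.85% that fell, and the median difference was 0.05 beside -0.02 over all genes. With the replicate number as a block, 11 rose and 3 fell, beside 6.60% and 4.94% of all genes. The riser was Prdx2, the peroxiredoxin abundant in red blood cells, which reduces hydrogen peroxide through thioredoxin. Prdx2 read 9.40, 7.20, 8.64 and 7.93 on mutant arrays 1 to 4, against 5.41, 5.60, 5.98 and 5.48 on control arrays 1 to 4, so the groups did not overlap. Its difference was 2.68 (SE 0.41), or 6.39-fold, with an adjusted p of 0.0135 in limma and 0.0109 with the replicate block, and 15 alternatives put it between 0.00158 and 0.127. The call was lost without mutant array 3, without control array 4 and without control arrays 1 and 3 together, and the mean of all Prdx2 probe sets gave a difference of 1.27. As with Gpx1, mutant array 2 was the lowest mutant array. The Sertoli marker mean was highest on mutant arrays 1 and 3. Mutant arrays ranked in the same order for Prdx2 and for the spermatogonia marker mean (5.43, 4.63, 5.03 and 4.78). Control arrays ranked otherwise for Prdx2 than for either marker mean. The part of RNA from Sertoli cells or spermatogonia was not tested.

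The list of glutathione supply and reduction, which also holds glutaredoxins and glutathione-degrading genes such as Chac1, had 0 of 19 genes past the threshold. With the replicate block 3 rose and 1 fell. The risers were Gss, the glutathione synthetase (8.49 in mutant and 7.81 in control arrays), Pgd, an NADPH-producing dehydrogenase of the pentose phosphate pathway (7.53 in mutant and 6.35 in control arrays), and Idh1, another NADPH producer (7.74 in mutant and 6.93 in control arrays). Txnrd3, a testis thioredoxin and glutathione reductase, averaged 13.11 in mutant and 13.36 in control arrays. Peroxiredoxins, thioredoxins and superoxide dismutases included Prdx2 as 1 of 16 past the threshold, and 6 of 16 rose with the replicate block. Besides Prdx2 these were the mitochondrial peroxiredoxin Prdx3 (difference 1.01), the thioredoxin Txn1 (2.11), its reductase Txnrd1 (0.62) and the sestrins Sesn1 (0.77) and Sesn2 (0.75). Selenoprotein synthesis, which supplies the selenocysteine of Gpx1 to Gpx4, had 0 of 12 past the threshold with or without the block, and other selenoproteins 0 of 14, or 1 riser with the block, Selenoh (difference 1.54). In the list of heme peroxidases and producers of hydrogen peroxide, 0 of 16 passed in either fit and 15 of 16 read under 4 on every array. The exception was Gpx8, a glutathione peroxidase placed in this list and not among the members. It averaged 3.77 in mutant and 3.92 in control arrays, with 4.11 on control array 1. Mpo, the neutrophil relative of Lpo, averaged 2.50 in mutant and 2.75 in control arrays, and Epx, the eosinophil relative, 2.60 in mutant and 2.65 in control arrays. Peroxisome genes, the compartment of Cat, had 0 of 21, or Pex19 as a riser (difference 0.68) with the block, and the NRF2 response 0 of 15 past the threshold. The 3 genes that fell with the block were Chac1, a glutathione-degrading enzyme (-0.93), Pex16, a peroxisome biogenesis factor (-0.57), and Keap1, the repressor of NRF2 (-0.94). All genes given here from the block fit, and Mpo, Epx, Gpx8 and Txnrd3, were named after their values were seen. In these block fits the members kept 1 call, that of Lpo.

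**Figure D4:**
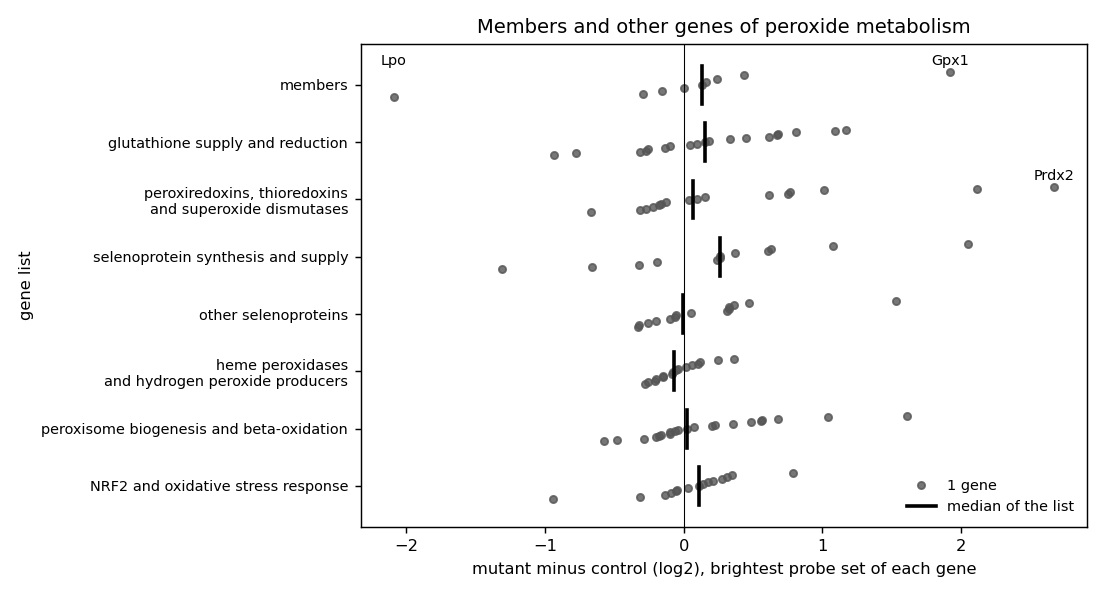
Mutant minus control difference (log2, horizontal axis) of the brightest probe set of each gene, for the 9 members and 7 lists of other genes of peroxide metabolism. Points are genes and black bars list medians. Among the genes plotted, Lpo at -2.09 is the lowest and Prdx2 at 2.68 the highest, and the list medians stay between -0.07 and 0.26.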

How the data were processed

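The deposited log2 intensities per probe set were normalized by the authors; GCRMA and limma are named per the submitters' processing notes, without versions or roles. Per the labels, spermatids were purified on a 2% to 4% albumin gradient and 2 µg of RNA was labelled with biotin. Of 45101 probe sets, 64 controls were left out. The platform annotation gave 34945 probe sets 1 gene, 932 several and 9160 none, and 34741 were matched to RefSeq (GRCm38.p6), the source of symbols and promoter windows. The number of arrays limits the precision.

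Groups and replicate numbers came from the sample titles. Expression was fitted with limma 3.58.1 (R 4.3.3, group as the only term, tested on simulated data), two-sided, with Benjamini-Hochberg adjustment over 45037 probe sets or 18193 genes and a threshold of 0.05. "Rose" and "fell" mean past that threshold. Each gene is represented by its brightest single-gene probe set. Deviations from group means of same-numbered mutant and control arrays correlated with r of 0.40, 0.43, 0.54 and 0.45. The numbers were taken as pairs only in the fit with the replicate block, which is given where it moves a count. The main counts and the SEs given for members come from the fit without pairs. Members and lists were chosen with earlier results of these data known. Named were every member, at most 3 called genes of each pathway list (smallest adjusted p), the 5 nearest profiles to Lpo, Brdt and defining markers. Mpo, Epx, Gpx8, Txnrd3, single markers and the genes of the block fit were added after seeing values. Alternatives were the block, leaving out each array or control arrays 1 and 3, a minimum mean of 4, trended and robust variances, array weights, median centring and the mean of a gene's probe sets. Of the other marker lists, 2 of 9 Leydig, 1 of 14 peritubular and vascular, 1 of 11 spermatogonia and 1 of 15 spermatocyte markers rose and 0 fell. Spermatocyte markers had list means of 8.04 to 8.99 on mutant and 8.01 to 8.35 on control arrays. That list differed by 0.35 as a mean and by 0.88 as a median of the markers. Before adjustment 5 spermatocyte markers were higher and 1 was lower in mutant arrays. With the replicate block 4 spermatogonia and 4 spermatocyte markers rose and 0 fell, and the Leydig and the peritubular and vascular counts were the same.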

Additional observations from a re-analysis of the deposited data

Results flagged for a closer look

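Among 22 groups of 4 arrays examined for the 11 member probe sets, 1 array stood far from the others of its group, where chance flags about 1 group in 20. Gpx7 read 3.01 on control array 3, against 2.42 to 2.48 on the other control arrays. The same array had the widest gap between 3′ and 5′ Gapdh control probe sets, at 2.05.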

How the results depend on the processing

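Lpo passed in all 14 alternatives over probe sets and all 15 over genes. The count of member probe sets past the threshold was 1 in 13 of 14 alternatives and ran from 1 to 2 when 1 array was left out, with 2, Lpo and Gpx1, without mutant array 2. At gene level 2 members, again Lpo and Gpx1, passed with array weights, a minimum mean of 4, trended and robust variances or without mutant array 2. The paired fit with the replicate block left the members at 1 call, changed no other member's call, and raised the pathway genes to 11 risers and 3 falls. Array weights gave 11 and 3, the mean of all probe sets 3 risers, trended and robust variances 2 risers, a minimum mean of 4 gave 1 fall, and without control arrays 1 and 3 there were 0 risers. Without 1 array the risers ran from 0 (without control array 4 or mutant array 3) to 5 (without mutant array 2) and the falls from 0 to 1 (1 without mutant array 2). Over all genes, 339 rose and 336 fell, against 1201 and 899 with the replicate block, 18 and 50 without control arrays 1 and 3, and 70 to 755 and 129 to 376 without 1 array. Members with 4 arrays a group and values near the floor give little precision, and Gpx5 changed sign without mutant array 3 (-0.01). The cause of these shifts was not tested.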
